A study of Mus musculus with 9 samples.

Results

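Claudins are the membrane proteins that form tight junction strands, and 6 of them were followed here by gene symbol across the cerebral cortex of untreated adult mice: Cldn1, Cldn3, Cldn5, Cldn10, Cldn11 and Cldn12. All 6 had a row in the 32531 gene rows of every count file, beside 17 other claudin rows that were used for comparison. The mice carried the Abcb1a-EGFP/Rpl10a transgene of the Abcb1a-TRAP line ES3026, in which a ribosomal protein fused to green fluorescent protein is made under regulatory sequence of Abcb1a. Abcb1a encodes an efflux pump that brain endothelial cells use to expel drugs. In translating ribosome affinity purification (TRAP), antibodies against that tag pull down ribosomes with the mRNA they carry. The 9 libraries formed 3 groups of 3: immunoprecipitated (IP) RNA extracted by investigator ES, IP RNA extracted by investigator JL, and input total RNA extracted by JL. All 3 groups carried the transgene and none was treated, and the submitters state that the investigator is the sole difference between ES and JL samples. Neither an ES input nor tissue without the tag was analysed here, and age is given only as adult. Whether the 3 libraries of a group came from 3 mice is not stated, and the p-values therefore describe how far these libraries vary, which may be technical.

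Claudins span the membrane and seal the cleft between neighbouring cells, and their tails bind the scaffold proteins of the junction. In brain endothelium Cldn5 is the main claudin of the blood-brain barrier, and mice without it have a barrier that leaks small molecules. Cldn11 forms the strands between the wraps of myelin and is a classic product of oligodendrocytes, and it is also made by barrier cells of the meninges. Cldn10 is known in brain from astrocytes and in kidney as a paracellular ion channel, Cldn1 from skin and the meninges, Cldn3 from epithelia including the choroid plexus, and Cldn12 is a divergent member expressed in many tissues.

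The promoters of Cldn5, Cldn11 and Cldn1 are shown because Cldn5 and Cldn11 were the members higher in the JL IPs than in input and Cldn1 was the member that fell most. Each line gives the 250 bases before the annotated start, 5′ to 3′ on the gene's strand, from RefSeq (GRCm38.p6), at chr16:18776597-18776846 (plus strand), chr3:31149670-31149919 (plus) and chr16:26371840-26372089 (minus). Capitals mark a GC box or a CCAAT box on either strand.
Cldn5: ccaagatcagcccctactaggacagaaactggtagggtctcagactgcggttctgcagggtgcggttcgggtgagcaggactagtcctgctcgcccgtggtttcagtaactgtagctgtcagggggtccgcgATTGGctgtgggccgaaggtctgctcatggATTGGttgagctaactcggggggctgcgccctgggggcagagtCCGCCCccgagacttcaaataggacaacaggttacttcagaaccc
Cldn11: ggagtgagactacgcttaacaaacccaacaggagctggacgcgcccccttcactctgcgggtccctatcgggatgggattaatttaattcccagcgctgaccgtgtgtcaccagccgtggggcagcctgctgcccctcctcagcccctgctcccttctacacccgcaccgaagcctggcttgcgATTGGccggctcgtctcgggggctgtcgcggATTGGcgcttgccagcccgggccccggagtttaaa
Cldn1: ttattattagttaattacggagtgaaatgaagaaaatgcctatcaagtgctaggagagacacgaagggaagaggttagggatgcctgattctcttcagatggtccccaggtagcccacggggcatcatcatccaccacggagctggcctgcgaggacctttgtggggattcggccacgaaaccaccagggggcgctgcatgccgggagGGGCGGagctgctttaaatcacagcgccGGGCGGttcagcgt
Of 7 motifs searched on both strands, GC boxes (GGGCGG) and CCAAT boxes (CCAAT) were the ones with a match in these 3 windows, and no 2 matches overlapped. Cldn5 and Cldn11 each held 2 CCAAT boxes in reverse, the first pair at -118 to -114 and -88 to -84 and the second at -66 to -62 and -35 to -31. Cldn5 also held 1 GC box, and Cldn1 held 2. CCAAT in reverse also stood in windows not shown, of members lower in the JL IPs than in input: Cldn10 (-118 to -114) and Cldn12 (-123 to -119). The windows of Cldn1 and Cldn3 held no CCAAT box. The shares that follow count windows with any match on either strand. CCAAT stood in 33.8% and GGGCGG in 32.7% of 32851 mouse windows of the same length, and CCAAT was added to the search after the windows had been read. The other 5 motifs had no match in these 3 windows. The ETS letters searched were CCGGAAG, found in 6.91% of all windows, and the SOX letters were AACAAT, found in 9.42% of them. The forkhead letters were TGTTTAC, found in 3.17% of the windows. The TCF/LEF letters were ATCAAAG, found in 3.21% of the windows, and the TATA box was searched as TATAAA, found in 12.4%. The GC content was 59.6% in Cldn5, 63.6% in Cldn11 and 55.6% in Cldn1, where the median window had 52.4%. A match is a description of letters and not a bound site.

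The libraries held between 31987470 and 46598478 gene counts. The labels call all 9 libraries endothelial, inputs included. The summed level of 14 endothelial markers, such as Pecam1 and Cdh5, was 6428 to 6686 in the JL IPs in CPM, read counts scaled to library size. It was 684 to 938 CPM in the ES IPs and 29.5 to 37.7 CPM in the inputs. The summed level of 10 neuron markers was 2030 to 2593 CPM in the JL IPs, 16084 to 17965 in the ES IPs and 15358 to 16176 in the inputs, so neuron markers were high in the inputs despite their label and the ES IPs stood apart from the JL IPs. No marker of either list was at 0 in any group. The ribosomal RNA gene Rn45s took 15.7% to 17.9% of gene counts in the JL IPs, more than in any ES IP library, and 4.83% to 5.29% in the inputs. Abcb1a, whose regulatory sequence drives the tag, stood at 466 ± 21.5 CPM in the JL IPs, 44.9 ± 9.21 in the ES IPs and 2.16 ± 0.485 in the inputs (SD, n = 3). All 3 ES libraries carried the same lane number, which no JL library had, and the effect of lane and that of investigator cannot be told apart. In such bulk libraries fewer cells of a type and less RNA per cell cannot be told apart either. Levels are CPM scaled by TMM factors of all 9 libraries, mean ± SD of n = 3 libraries, and differences are log2 fold changes with their standard error (SE) and an adjusted p from edgeR's quasi-likelihood test over all tested genes.

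Across the members, 2 of the 5 tested between JL IP and input rose and 3 fell, where 74.1% of all tested genes passed, 36.7% higher and 37.4% lower. All 6 members had no overlap between these groups, including Cldn3, which was not tested. Of the tested genes, 80.8% had no overlap. For ES against JL IP, 2 of 5 rose, 2 fell and 1 did not pass, where 57.9% of tested genes passed, 29.7% higher and 28.2% lower. In that comparison 4 of 6 members had no overlap, against 65.9% of tested genes. The 6 again include Cldn3, which overlapped and was not tested. For ES IP against input, 1 of 6 rose, 4 fell and 1 did not pass, where 52.2% of tested genes passed, 26.9% higher and 25.3% lower. There 5 of 6 members had no overlap, against 64.3% of tested genes. The members' counts were not tested against these shares.

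**Figure D1:**
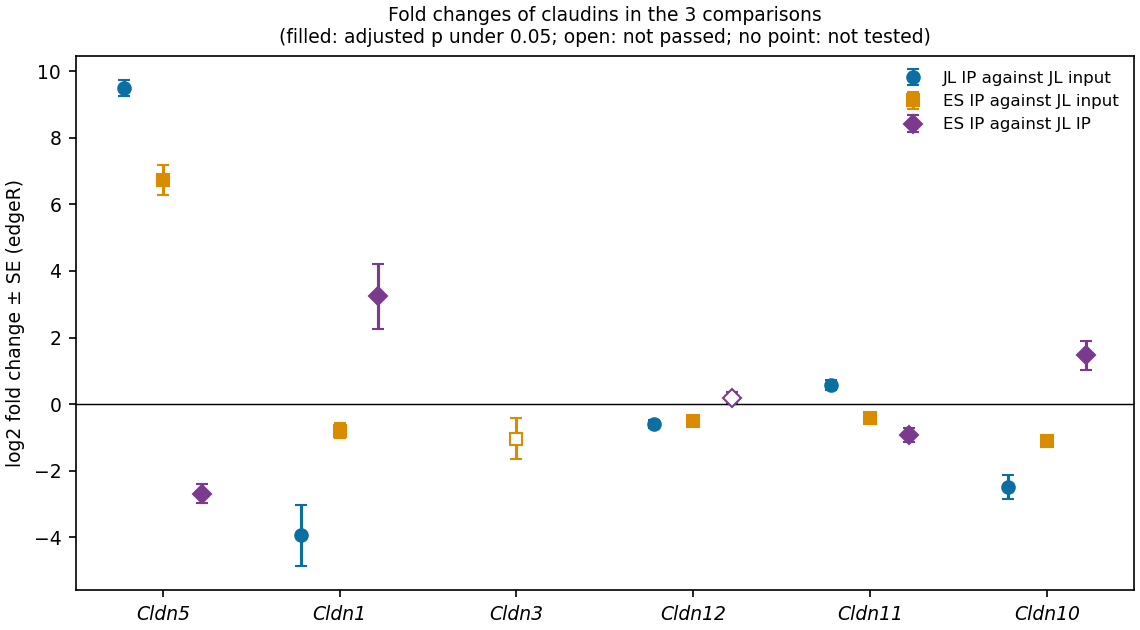
log2 fold change (vertical axis) of each claudin in 3 comparisons; bars are the standard error from edgeR, filled symbols have an adjusted p under 0.05, open symbols did not pass, and a missing symbol was not tested. Cldn5 stands at 9.49 and 6.72 against input, Cldn12 lies between -0.59 and 0.18, and Cldn1 has the widest error bars among the filled symbols.

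Cldn5, on chromosome 16 at 18776847 to 18778262 (mm10, plus strand, with exons over the whole span of 1416 bases), was far above the other members in the JL IPs. It was also above them in every ES IP library, by less, and was close to the bottom in input. In CPM it measured 585, 546 and 497 in the JL IPs, 124, 58.0 and 57.1 in the ES IPs and 1.14, 0.639 and 0.457 in input. The 3 groups did not overlap, and ES replicate 1 lay well above the other ES libraries. Its 3 inputs together held 111 reads, against 50634 in the JL IPs. Cldn5 was 719-fold higher in the JL IPs than in input, a log2 fold change of 9.49 ± 0.24 (adjusted p = 6.29e-09), the rank of 6 from the top among 17357 tested genes. It was 106-fold higher in the ES IPs than in input (6.72 ± 0.45, adjusted p = 2.12e-05) and 6.46-fold lower in the ES than in the JL IPs (-2.69 ± 0.29, adjusted p = 1.63e-05). Both comparisons with input use the same 3 input libraries. Leaving out any 1 library left the last value between -3.14 and -2.50.

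**Figure D2:**
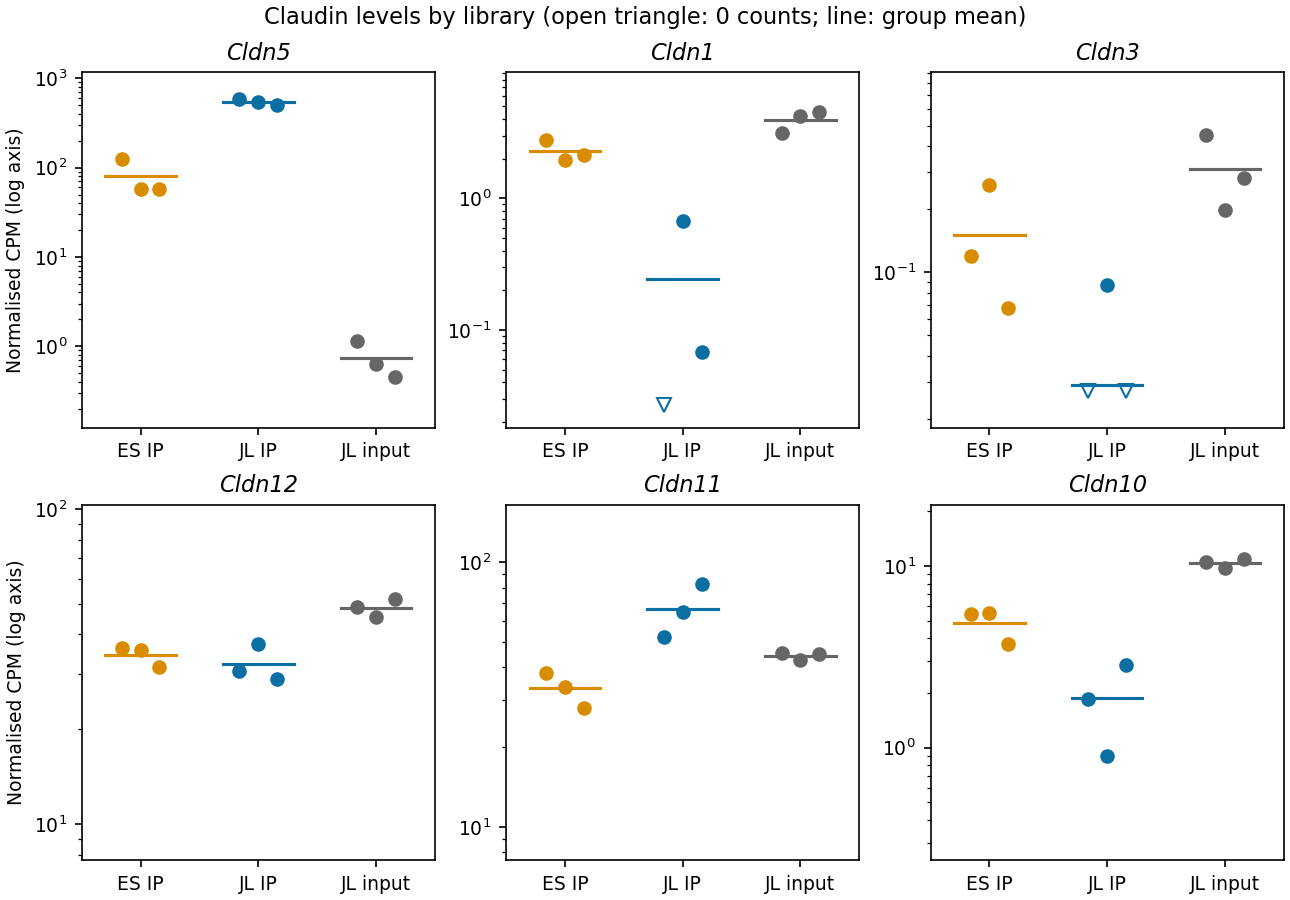
Normalised CPM of each claudin (log axis, a different range in each panel) in the 3 libraries of each group; points are libraries, lines are group means and open triangles are libraries with 0 counts. Cldn5 is highest in the JL IPs, at 497 to 585 CPM, Cldn11 is also highest there, and the other 4 have their highest mean in the inputs.

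Set against the endothelial markers, Cldn5 took overlapping proportions in both sets of IPs. It came to 8.88%, 8.17% and 7.73% of their summed CPM in the JL IPs and to 13.2%, 7.35% and 8.34% in the ES IPs. In the inputs the proportion was 3.38%, 1.69% and 1.55%, below every IP library. In input the Cldn5 proportion rests on 58, 32 and 21 reads. The median log2 fold change of the 14 markers between JL IP and input was 7.95, against 9.49 for Cldn5, and between ES and JL IP it was -3.03, against -2.69. No test of these proportions was made.

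Cldn11, on chromosome 3 at 31149920 to 31164324 (plus strand, exons of 1870 bases), was the other member higher in the JL IPs. In CPM it measured 52.2, 64.8 and 82.4 in the JL IPs, 38.2, 33.8 and 28.0 in the ES IPs and 45.4, 42.6 and 44.9 in input. Every JL IP library lay above every input, and every ES library lay below every input. Cldn11 was higher in the JL IPs than in input (log2 fold change 0.59 ± 0.15, adjusted p = 0.00655), a call that ended with upper quartile scaling (adjusted p = 0.0664) and with library size alone (adjusted p = 0.0914). Those scalings moved the median of all genes from -0.09 to -0.34 and -0.35, and relative to that median Cldn11 stood at 0.67, 0.67 and 0.68. Cldn11 was 1.89-fold lower in the ES than in the JL IPs (-0.92 ± 0.21, adjusted p = 0.0029). Between ES IP and input it was 1.33-fold lower (-0.41 ± 0.13, adjusted p = 0.0289). That call ended in 5 of the 6 fits that left out 1 library, all but the one without ES replicate 1 (adjusted p = 0.0688 without ES replicate 2, 0.0716 without ES replicate 3, and 0.0953, 0.0764 and 0.0939 without input 1, 2 and 3), and with all 9 libraries in 1 fit (adjusted p = 0.0737).

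Most markers of oligodendrocytes moved opposite to Cldn11 in both comparisons that contain the JL IPs and in the same direction between ES IP and input. Of 14 such markers, 13 fell and 1 rose between JL IP and input, with a median log2 fold change of -2.57 (all tested genes: -0.09), and 12 rose and 1 fell between ES and JL IP, with a median of 1.46 (all: 0.03). Between ES IP and input 11 fell, 0 rose and 3 did not pass, with a median of -1.11 (all: 0.00). The marker that rose in the first and fell in the second was Mal, a myelin proteolipid (0.77 and -1.49). The summed level of the 14 was 875 to 1021 CPM in the JL IPs, 1282 to 1494 in the ES IPs and 2764 to 3188 in the inputs, with none at 0. As a percent of that sum, Cldn11 was 5.57%, 7.41% and 8.07% in the JL IPs, 2.82%, 2.26% and 2.19% in the ES IPs and 1.43%, 1.54% and 1.53% in input. The 3 groups did not overlap in this proportion. The summed level of 10 markers of fibroblasts and meninges was 154 to 220 CPM in the JL IPs, 55.7 to 68.2 in the ES IPs and 171 to 192 in the inputs, again with none at 0. Of these 10, 6 rose and 3 fell between JL IP and input, and 7 fell and 2 rose between ES and JL IP, with 1 not passing in each. Their log2 fold changes in these 2 comparisons ran from Slc47a1, a transporter of organic cations, at 4.88 and -3.30, to Lum, a matrix proteoglycan, at -3.38 and 2.09. Slc6a13, a GABA transporter, also went opposite to Cldn11 in both (-1.84 and 1.74), and the growth factor Igf2 fell in both (-1.92 and -1.02). All 14 endothelial markers rose between JL IP and input (median 7.95) and fell between ES and JL IP (median -3.03), the directions of Cldn11. Between ES IP and input all 14 rose (median 4.92), opposite to Cldn11. As a percent of their sum, Cldn11 was 0.792% to 1.28% in the JL IPs, 4.07% to 4.29% in the ES IPs and 113% to 152% in the inputs. The part of endothelium, oligodendrocytes, fibroblasts and meninges in the Cldn11 values was not tested.

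**Figure D3:**
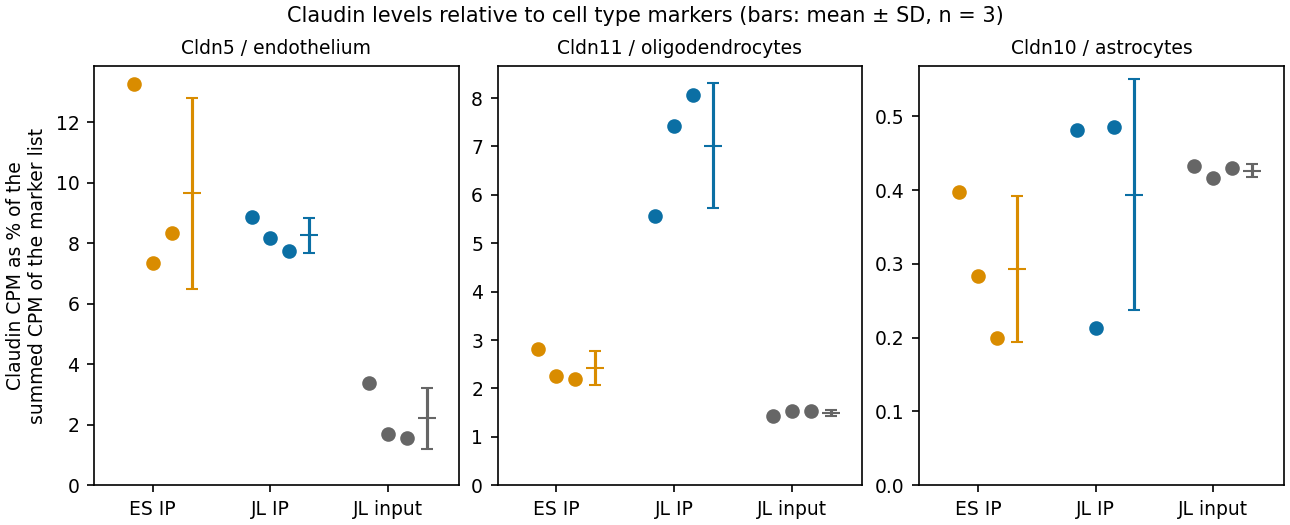
Level of 3 claudins as a percent of the summed CPM of a marker list (linear axes from 0), by library; points are libraries and the bars beside them are mean ± SD of 3 libraries. Cldn5 against endothelium is lowest in the inputs at 1.55% to 3.38%, Cldn11 against oligodendrocytes is highest in the JL IPs at 5.57% to 8.07%, and Cldn10 against astrocytes overlaps between ES and JL IPs.

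Cldn10, on chromosome 14 at 118787908 to 118875489 (plus strand), fell in both sets of IPs. In CPM it measured 1.85, 0.899 and 2.87 in the JL IPs, 5.47, 5.49 and 3.71 in the ES IPs and 10.6, 9.82 and 10.9 in input, with no overlap between groups. It was 5.60-fold lower in the JL IPs than in input (-2.48 ± 0.37, adjusted p = 0.000315) and 2.14-fold lower in the ES IPs than in input (-1.10 ± 0.18, adjusted p = 0.00152). The ES IPs stood 2.76-fold above the JL IPs (1.47 ± 0.44, adjusted p = 0.0146), a call that ended without ES replicate 2 (adjusted p = 0.0565). The summed level of 12 astrocyte markers was 384 to 590 CPM in the JL IPs, 1376 to 1937 in the ES IPs and 2360 to 2543 in the inputs, with none at 0. Of these 12, 10 fell and 2 rose between JL IP and input, with a median of -2.40, and Cldn10 was 0.213% to 0.486% of their sum in the JL IPs, 0.200% to 0.397% in the ES IPs and 0.416% to 0.433% in the inputs. The 2 that rose were Gjb6 and Gja1, connexins of astrocytes. Their part in the Cldn10 values was not tested. Cldn10 has transcripts from different starts, and counts per gene do not separate them.

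Cldn12, on chromosome 5 at 5489537 to 5514958 (minus strand), changed by less than Cldn5, Cldn1 and Cldn10 against input. In CPM it measured 30.7, 37.3 and 28.8 in the JL IPs, 36.2, 35.8 and 31.5 in the ES IPs and 48.8, 45.6 and 51.7 in input. The 2 sets of IPs overlapped and both lay below every input. Cldn12 was 1.51-fold lower in the JL IPs than in input (-0.59 ± 0.12, adjusted p = 0.00179) and 1.41-fold lower in the ES IPs than in input (-0.50 ± 0.11, adjusted p = 0.00665). Between ES and JL IP the difference was 0.18 ± 0.18 and did not pass (adjusted p = 0.424). The neuron markers had a median log2 fold change of -2.42 between JL IP and input and of 2.76 between ES and JL IP. Between ES IP and input their median was 0.28, where 5 rose, 3 fell and 2 did not pass. The part of neurons and of other cell types in the Cldn12 values was not tested.

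Cldn1, on chromosome 16 at 26356642 to 26371841 (minus strand), was nearly missing from the JL IPs. It had 0, 23 and 2 reads there, which is 0, 0.667 and 0.067 CPM, against 2.78, 1.95 and 2.12 CPM in the ES IPs and 3.14, 4.19 and 4.55 in input. The 3 groups did not overlap, and JL replicate 2 held 23 of the 25 JL IP reads. Cldn1 was 15.3-fold lower in the JL IPs than in input (-3.94 ± 0.92, adjusted p = 0.00422) and 9.43-fold higher in the ES than in the JL IPs (3.24 ± 0.97, adjusted p = 0.0146). Without JL IP replicate 2 these became -6.74 (adjusted p = 0.000118) and 6.01 (adjusted p = 0.000547). The ES IPs were 1.74-fold below input (-0.80 ± 0.23, adjusted p = 0.0189). That call ended in 4 of the 6 fits without 1 library (adjusted p = 0.0621 and 0.0531 without ES replicates 2 and 3, 0.0718 and 0.0825 without inputs 2 and 3) and with all 9 libraries in 1 fit (adjusted p = 0.345).

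Cldn3, on chromosome 5 at 134986214 to 134987472 (plus strand), was at the limit of detection. It had 0, 3 and 0 reads in the JL IPs, 5, 12 and 3 in the ES IPs and 23, 10 and 13 in input, where 3 reads are 0.0970, 0.0684 and 0.0613 CPM in the 3 groups. It did not pass the filter on low counts in either comparison with the JL IPs. The pooled counts put it 9.73-fold higher in input than in the JL IPs, with an exact 95% interval of 3.13 to 48.9 that covers counting error only. Without the filter edgeR gave -3.20 ± 1.15 (adjusted p = 0.035) for JL IP against input and 2.27 ± 1.58 (adjusted p = 0.266) for ES against JL IP. Cldn3 passed the filter in 4 of the 6 fits of JL IP against input that left out 1 library. It was -6.69 (adjusted p = 0.00759) without JL replicate 2, which held all 3 JL IP reads, a fitted value against libraries at 0 that is no bound. It was -2.68 and -2.67 without JL replicates 1 and 3 (adjusted p = 0.0453 and 0.0435), and without input 2 it was -3.44 and did not pass (adjusted p = 0.05003). The difference between ES IP and input was -1.03 ± 0.62 and did not pass (adjusted p = 0.19). Without 1 library it ran from -1.70 (without ES replicate 2, adjusted p = 0.0742) to -0.67 and passed in none of the 6 fits. Cldn3 shares 40 exon bases with the antisense gene Wbscr25, and since the strand setting is not given, reads there cannot be told apart.

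Per kilobase of exon, which allows levels of different genes to be compared, the order of the members differed between IPs and input. In the JL IPs it was Cldn5 (383 ± 31.3 CPM per kb), Cldn11 (35.6 ± 8.11), Cldn12 (7.64 ± 1.06), Cldn10 (0.722 ± 0.380), Cldn1 (0.0506 ± 0.0759) and Cldn3 (0.0230 ± 0.0399), of which Cldn1 and Cldn3 overlapped. The ES IPs had the same order, with Cldn5 at 56.3 ± 27.2, Cldn11 at 17.8 ± 2.72 and Cldn12 at 8.16 ± 0.612 CPM per kb, and no neighbours overlapped. In the inputs it was Cldn11 (23.7 ± 0.817), Cldn12 (11.5 ± 0.724), Cldn10 (4.03 ± 0.216), Cldn1 (0.818 ± 0.151), Cldn5 (0.526 ± 0.249) and Cldn3 (0.247 ± 0.102). There the libraries of Cldn1 and Cldn5 overlapped, as did those of Cldn5 and Cldn3. Cldn5 thus made up 89.7% of the members' summed level per kb in the JL IPs, 66.4% in the ES IPs and 1.29% in the inputs, where Cldn11 made up 58.0%. Exon lengths come from GENCODE M21 and may differ from the annotation behind the counts. The same order was found in all 3 groups with the longest transcript as the length and with library size alone as the scaling.

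The 17 other claudin rows held few reads, and 3 of them passed the filter between JL IP and input, of which 2 fell and 1 did not pass. The 6 members carried between 96.1% and 99.8% of all claudin reads in every library. Of the others, 1 reached 1 CPM in the mean of a group: Cldn2, a pore-forming claudin of choroid plexus epithelium. In CPM it measured 1.10, 0.203 and 0.708 in the JL IPs, 0.216, 0.481 and 0.271 in the ES IPs and 2.26, 1.90 and 3.13 in input. Cldn2 was lower in the JL IPs than in input (-1.86 ± 0.59, adjusted p = 0.0186), a call that ended without input 1 (adjusted p = 0.0515) or input 3 (adjusted p = 0.0857), and lower in the ES IPs than in input (-2.89 ± 0.38, adjusted p = 0.000498). Between ES and JL IP it did not pass (-0.95 ± 0.79, adjusted p = 0.326). The summed level of 8 choroid plexus markers was 55.0 to 76.1 CPM in the JL IPs, 8.44 to 11.2 in the ES IPs and 683 to 780 in the inputs, with none at 0. Of the 8, 6 fell between JL IP and input, 2 did not pass, and all 8 fell between ES IP and input. Between ES and JL IP 7 of these markers were tested, of which 4 fell, 1 rose and 2 did not pass (median log2 fold change -1.41, all tested genes 0.03). Cldn1 rose in that comparison (3.24 ± 0.97), and Cldn3 was at 2.27 ± 1.58 without the filter and did not pass. Of the 10 markers of fibroblasts and meninges, 6 rose and 3 fell between JL IP and input, where Cldn1 fell. Between ES and JL IP 2 of them rose and 7 fell, and 1 did not pass in each comparison. The part of choroid plexus in the Cldn2, Cldn3 and Cldn1 values was not tested, nor that of fibroblasts and meninges in the Cldn1 values. Cldn13 and Cldn22 had 0 reads in all 9 libraries.

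Genes known to act on Cldn5 were higher in the IPs. Of 5 listed, 3 of which (Cdh5, Erg and Sox18) are also among the endothelial markers, all 5 rose against input in the JL and in the ES IPs. Of all tested genes, 36.7% were higher in the JL IPs than in input and 26.9% in the ES IPs. The median log2 fold change of the 5 was 7.28 in the JL IPs and 4.14 in the ES IPs (all tested genes: -0.09 and 0.00). Sox18 and Erg, transcription factors that activate Cldn5 in cultured human endothelial cells, rose most in the JL IPs (8.76 ± 0.13 and 7.40 ± 0.17), and Ctnnb1 (beta-catenin) and Foxo1, a repressor of Cldn5, rose least (1.62 ± 0.08 and 2.52 ± 0.11). Between ES and JL IP 4 of the 5 fell, with Cdh5, the endothelial cadherin, at -3.06 ± 0.19 and Sox18 at -3.02 ± 0.17, and Ctnnb1 did not pass (-0.34 ± 0.22, adjusted p = 0.214). Without ES replicate 2 Ctnnb1 passed too (-0.62, adjusted p = 0.0201). Of all tested genes, 28.2% were lower in the ES than in the JL IPs.

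The other genes of the tight junction went in both directions. Of 19 listed, 18 were tested between JL IP and input, of which 11 rose, 6 fell and 1 did not pass (median log2 fold change 2.46, all tested genes -0.09). Lsr, a protein of tricellular junctions, rose most (7.05 ± 0.11), from 0.895 ± 0.0802 CPM in input to 119 ± 3.45, followed by the adhesion molecule Esam (6.71 ± 0.12). Marveld3, a tetraspan junction protein, fell most (-4.24 ± 0.83), from 0.658 ± 0.132 CPM in input to 0.0306 ± 0.0291 in the JL IPs. That is below the level of 3 reads there (0.0970 CPM). Without 1 library its fold change ran from -5.04 (without JL replicate 2) to -3.73. Next lowest was the multi-PDZ scaffold Inadl, also called Patj (-2.14 ± 0.22). Of the 6 that fell, Cgn lost its call without input 1 (adjusted p = 0.0542). Between ES and JL IP 17 were tested, of which 11 fell, 2 rose and 4 did not pass (median -1.46, all genes 0.03). Jam2 and the junction protein Ocln fell most (-2.85 ± 0.21 and -2.73 ± 0.20), and the scaffolds Cgn and Magi1 rose (2.06 ± 0.52 and 1.70 ± 0.21). Between ES IP and input 10 of 18 rose, 3 fell and 5 did not pass (median 0.54, all genes 0.00), led by Lsr (4.42 ± 0.23) and Esam (4.09 ± 0.34), with Inadl (-2.06 ± 0.15) and Jam3 (-1.06 ± 0.20) lowest. Magi1, 1 of the 10, lost its call with upper quartile scaling (adjusted p = 0.0555) and without input 1, 2 or 3 (adjusted p = 0.053, 0.062 and 0.0627), and Jam2 gained one without ES replicate 3 (adjusted p = 0.0139). The fold change of Cldn5 was larger than that of any of the 18 in both comparisons with input.

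**Figure D4:**
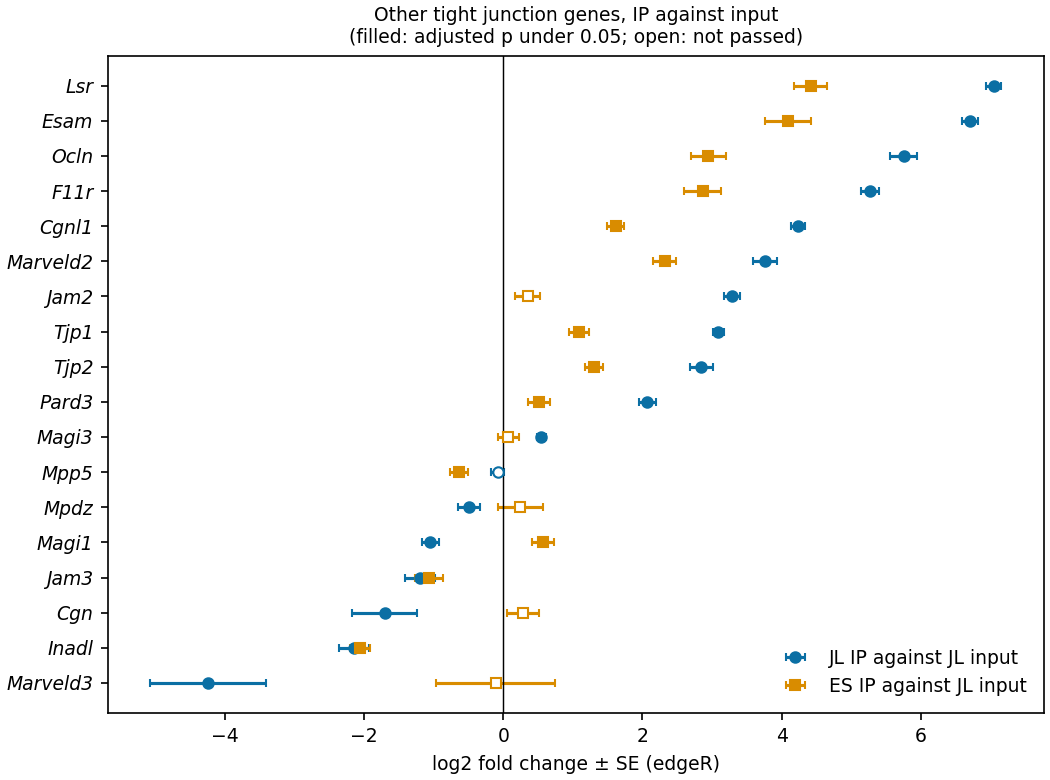
log2 fold change (horizontal axis) against input of 18 other tight junction genes in the JL IPs and the ES IPs; bars are the standard error from edgeR, and open symbols did not pass at an adjusted p of 0.05. The JL values run from -4.24 for Marveld3 to 7.05 for Lsr, and the ES values lie closer to 0 for the genes at the top.

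The genes most like each member across the 9 libraries were ranked by the root mean square difference of log2 CPM, each gene centred on its own mean, among 13432 protein-coding genes. This is a description, since the libraries share 3 groups. For Cldn5 the nearest were Ly6c1 (0.18), Ly6a (0.27) and Cytl1 (0.44), where the median gene differed by 3.93. Ly6c1 and Ly6a encode surface proteins of the Ly6 family and Cytl1 a secreted factor. Ly6c1 stood at 1053 CPM in the JL IPs, 176 in the ES IPs and 1.58 in the inputs. For Cldn11 they were Asah1, an acid ceramidase (0.08), Zfp410 (0.11) and Dolk (0.12), with a median of 0.74 over all genes, and Asah1 stood at 36.1, 18.9 and 25.8 CPM in JL IP, ES IP and input. For Cldn12 they were Ptcd3 (0.09), the endocytic adaptor Eps15 (0.10) and Zfp763 (0.11), with a median of 0.72. For Cldn10 they were the glycine receptor subunit Glra2 (0.16), the mitochondrial carrier Slc25a27 (0.22) and the neuropeptide gene Adcyap1 (0.23), with a median of 1.23. For Cldn1 they were the small GTPase gene Rab39 (0.33), Akr1c18 (0.43) and Ccdc155 (0.47). Cldn3 lay too close to the pseudocount of 0.1 CPM for its neighbours, Wdr60, Efhd1 and Gal3st1, to be read as more than a rank. The pseudocount also weighs on the neighbours of Cldn1. In the JL IPs Cldn1 lay at 0, 0.667 and 0.067 CPM, and Rab39 averaged 0.139 CPM. With a pseudocount of 1 CPM, all 3 neighbours of Cldn11 and Cldn12 stayed, 2 of 3 did for Cldn5, 1 of 3 for Cldn1 and Cldn10, and 0 for Cldn3.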

How the data were processed

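RNA was measured in 9 libraries of mouse cerebral cortex. Reads were aligned with STAR 2.0.0e to mm10 and counted with HTSeq, per the submitters' processing notes. Which annotation and strand setting were used is not given in the sources used here. Each deposited file holds raw counts, as whole numbers for every gene row. HTSeq's special rows and a row of unknown genes stayed out of library sizes and tests; reads without a feature made up 17.3% to 24.4% of the sum of gene, no-feature and ambiguous counts. Ambiguous reads made up 10.3% to 11.3% of that sum in the inputs and 2.04% to 2.54% in the IPs. This difference runs with both comparisons against input, and its part in them was not tested.

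The quasi-likelihood test of edgeR 4.0.16 (R 4.3.3) was run on each pair of groups, after filterByExpr and TMM scaling. All genes tested entered the Benjamini-Hochberg adjustment, and 0.05 was the threshold. DESeq2 1.42.0 and limma 3.58.1 were alternatives. The test was also run on simulated counts in which few genes were changed, in equal numbers up and down. In the data 52.2% to 74.1% of tested genes passed, so the simulation cannot show how the test does under such wide change. Standard errors were derived as the ratio of the fold change (log2) to the root of the F statistic. Intervals and floors of 3 counts cover counting error only. Positions and lengths come from GENCODE M21 (mm10), promoters from RefSeq, in which all 6 members matched.

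Alternatives changed the scaling, filter, tool, libraries, gene length and pseudocount. The members, lists and comparisons were chosen with earlier results of these data known. Named were the 6 members, Abcb1a, the 2 highest and 2 lowest genes of the tight junction and Cldn5 regulator lists in each comparison, other claudins reaching 1 CPM, and the 3 genes nearest each member in pattern; other genes named from marker lists or at 0 reads were chosen after their values were seen. Marker lists for microglia, mural and blood cells were also summed: microglia markers came to 25.3 to 29.4 CPM in the JL IPs, 34.3 to 44.6 in the ES IPs and 80.5 to 86.1 in input, mural markers to 22.3 to 44.9, 30.0 to 32.3 and 45.0 to 49.6, and blood markers (3 of 5 found) to 4.73 to 14.3, 5.82 to 12.3 and 24.8 to 67.1.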

Additional observations from a re-analysis of the deposited data

How the results depend on the processing

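The alternatives gave 330 recomputed values (counts of changed genes and the members' fold changes). Of these, 316 were scored as the same, 14 were fold changes that kept the direction but no longer passed, and 0 reversed. A fold change was scored as the same if it kept its direction and its side of the threshold. A count of changed genes was scored as the same if it stayed within a set ratio of the main count. For example, genes lower in the ES IPs than in input numbered 4422 in the main fit and 3379 with all 9 libraries. The 14 concern 4 results. Cldn11 between JL IP and input was 0.33 with upper quartile scaling and 0.33 with library size alone. Cldn10 between ES and JL IP ran from 1.13 to 1.92 without 1 library. Between ES IP and input, Cldn1 was -0.79 with all 9 libraries and -0.95 to -0.68 without 1 library, and Cldn11 was -0.41 and -0.50 to -0.29. For scaling and for the joint fit the cause was not tested; leaving out a library lowers n. Of the other genes, those that reversed had not passed: between ES and JL IP Inadl ran from -0.034 to 0.40 and Jam3 from -0.017 to 0.41, and between ES IP and input Marveld3 ran from -1.41 to 0.48 (0.08 without ES replicate 2, 0.05 without input 3). For ES IP against input, 51.5% of calls were higher in the IPs, 40.7% with upper quartile scaling and 43.2% with library size alone, scalings that moved the median of all genes by -0.15 and -0.11. For JL IP against input the share was 49.6%, 41.8% and 41.6%, with the median moved by -0.25 and -0.26.

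Same-numbered JL IP and input libraries had the same lane number. Their deviations from the group means correlated at 0.0917, 0.0333 and 0.0533, low values that do not show whether the libraries were paired. The labels give no shared animal, so the numbers were not taken as pairs in the main fits. Each JL IP nonetheless correlated best with its own number. With a replicate block the counts were 6124 higher and 6307 lower for JL IP against input (main 6372 and 6487), 4771 and 4532 for ES against JL IP (main 4809 and 4572) and 4439 and 4212 for ES IP against input (main 4704 and 4422). The block changed no member's call and put Cldn1 at -4.65 for JL IP against input and at 4.06 for ES against JL IP. Depth limits Cldn3 and, in the JL IPs, Cldn1.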
